A study of Homo sapiens with 12 samples.

Results

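Long intergenic non-coding RNA genes that have no better name carry the symbol LINC and a number. This account covers the 153 genes of that kind with a mean level of at least 1 TPM over 12 RNA-seq libraries of Kelly, a human neuroblastoma cell line with amplified MYCN. TPM is a length-normalised share of the RNA. The deposited tables list 60660 gene identifiers, of which 2134 have a LINC symbol with a number. At 970 of these the value is 0 in every library, and 1011 lie above 0 but under a mean of 1 TPM. The genes were chosen by their mean TPM over all libraries, so their being detected is no finding. LINC01569 (0.987 TPM) and LINC01117 (0.994 TPM) lay just outside the threshold, and LINC01574 (1.01 TPM) and LINC02762 (1.02 TPM) just inside it. LINC00106 stands among the 153 with 2 identifiers, on X and as its pseudoautosomal copy on Y, which may share reads, so there are 152 symbols.

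Long intergenic RNAs are transcribed by RNA polymerase II outside protein-coding genes and are usually capped, spliced and polyadenylated. Most are scarce, many are restricted to a few cell types, and for most no function is known. Some act at their own locus and others hold proteins or small RNAs, while for others the act of transcription, not the RNA, is what matters. RCOR1 and RCOR2, the genes knocked down in this study, encode scaffold proteins of the CoREST complexes, which bring KDM1A, an enzyme that removes histone methylation, and histone deacetylases to chromatin.

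The 3 Kelly derivatives carried a doxycycline-inducible short hairpin RNA against RCOR1 (shRCOR1 line), against RCOR2 (shRCOR2 line) or a non-targeting control (shCTRL line). Each was left untreated or given 2 µg/mL doxycycline, called induced here, with 2 libraries per group and 12 in all. Titles and the time label give 72 h, whereas the treatment protocol mentions 24 or 48 h. Nothing in the labels says that replicates were separate cultures or that each line has more than 1 hairpin or clone, so p-values measure only the spread between these libraries.

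In the shRCOR1 line, RCOR1 stood at 8.32 and 9.08 TPM in untreated and 4.795 and 5.07 TPM in induced libraries. RCOR2 stood at 55.4 and 49.9 TPM in untreated and 17.7 and 20.5 TPM in induced libraries in the shRCOR2 line. In the shRCOR1 line it also went from 51.4 and 50.5 to 25.995 and 26.3 TPM. The induced shRCOR1 libraries thus hold less of both transcripts than the untreated ones. Set against the shCTRL change in log2(TPM + 1) (estimate ± SE, limma, threshold adjusted p under 0.05), RCOR2 passed in the shRCOR2 line (-1.24 ± 0.16, adjusted p = 0.0129). In the shRCOR1 line RCOR1 (-0.60 ± 0.17, adjusted p = 0.158) and RCOR2 (-0.75 ± 0.16, adjusted p = 0.0690) did not. Both did with the replicate number as a term in the fit (adjusted p = 0.0452 and 0.0163). All 13 adrenergic neuroblastoma markers exceeded 1 TPM in every library, as did 5 of the 9 mesenchymal neuroblastoma markers (227 to 510.3 TPM summed over the 9). Of the 5 fibroblast and endothelial markers 3 did so (33.0 to 150.2 TPM summed over the 5), with PECAM1 under 0.1 TPM throughout, and of the 5 Schwann cell markers 1 did so (1.94 to 10.1 TPM), with SOX10 under 0.1 TPM throughout. The 5 leukocyte markers summed to 0.0838 to 0.528 TPM, with PTPRC and CD3E under 0.1 TPM. Their part in the results was not tested. Relative depth ranged from 1 to 2.17 times the shallowest library. The 153 genes together took 0.101% to 0.134% of all TPM per library, and 125 to 149 of them reached 1 TPM. Mitochondrial transcripts took 13.3% to 21.4%, with replicate 2 above replicate 1 within each of the 6 groups. These are bulk values, in which fewer cells with a transcript and less of it per cell cannot be told apart.

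Promoter sequences are shown for the most abundant gene and for 5 genes that rose in the shRCOR2 line, chosen after their values were seen, so that the text on start regions below can be followed. Each is the RefSeq window of 300 bases in GRCh38.p14, from 250 bases before the annotated start to 50 after it, read 5′ to 3′ along the gene, and every CG pair is in capitals. LINC00682 lies on the minus strand at chr4:41882562-41882861, where the RefSeq start is 344 bp from the start in the deposited tables, and its window holds 8 CG pairs.
LINC00682: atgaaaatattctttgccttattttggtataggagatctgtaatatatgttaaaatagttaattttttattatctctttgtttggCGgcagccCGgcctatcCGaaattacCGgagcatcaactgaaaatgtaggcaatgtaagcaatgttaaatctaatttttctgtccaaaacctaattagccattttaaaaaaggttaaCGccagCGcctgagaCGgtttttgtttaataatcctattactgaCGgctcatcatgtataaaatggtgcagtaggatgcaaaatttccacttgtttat
LINC01547 (minus strand, chr21:44939864-44940163, 42 CG pairs) starts 75 bp from the start of FAM207A, on the other strand.
LINC01547: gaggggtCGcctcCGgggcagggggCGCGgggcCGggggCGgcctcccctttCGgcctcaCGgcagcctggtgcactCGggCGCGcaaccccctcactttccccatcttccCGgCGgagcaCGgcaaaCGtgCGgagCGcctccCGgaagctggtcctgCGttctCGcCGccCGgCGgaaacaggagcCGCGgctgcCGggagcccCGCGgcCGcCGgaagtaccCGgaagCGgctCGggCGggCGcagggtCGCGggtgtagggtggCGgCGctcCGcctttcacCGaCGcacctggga
LINC01521 (plus strand, chr22:31346509-31346808, 22 CG pairs) starts 431 bp from PATZ1, which encodes a zinc finger transcription factor.
LINC01521: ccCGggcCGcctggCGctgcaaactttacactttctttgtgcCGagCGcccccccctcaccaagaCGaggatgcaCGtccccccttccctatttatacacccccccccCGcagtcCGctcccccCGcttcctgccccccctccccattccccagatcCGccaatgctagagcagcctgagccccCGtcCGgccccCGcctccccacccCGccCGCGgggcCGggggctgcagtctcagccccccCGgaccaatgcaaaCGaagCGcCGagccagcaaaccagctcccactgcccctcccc
LINC00235 (minus strand, chr16:527358-527657, 36 CG pairs) starts 305 bp from CAPN15, a calpain gene.
LINC00235: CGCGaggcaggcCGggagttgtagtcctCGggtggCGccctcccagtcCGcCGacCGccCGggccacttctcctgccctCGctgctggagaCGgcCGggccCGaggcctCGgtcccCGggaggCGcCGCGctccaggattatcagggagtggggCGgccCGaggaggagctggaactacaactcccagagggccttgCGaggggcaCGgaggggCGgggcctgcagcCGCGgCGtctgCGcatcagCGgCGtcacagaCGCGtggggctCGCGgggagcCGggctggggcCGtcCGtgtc
LINC01518 (minus strand, chr10:42691710-42692009) and LINC01816 (minus strand, chr2:70125267-70125566) do not start head to head with a coding gene and hold 6 and 18 CG pairs.
LINC01518: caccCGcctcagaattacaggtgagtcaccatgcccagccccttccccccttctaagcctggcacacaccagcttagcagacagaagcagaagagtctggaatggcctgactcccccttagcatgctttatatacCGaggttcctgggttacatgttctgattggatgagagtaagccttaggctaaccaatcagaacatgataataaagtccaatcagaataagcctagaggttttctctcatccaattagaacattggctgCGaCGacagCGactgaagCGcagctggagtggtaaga
LINC01816: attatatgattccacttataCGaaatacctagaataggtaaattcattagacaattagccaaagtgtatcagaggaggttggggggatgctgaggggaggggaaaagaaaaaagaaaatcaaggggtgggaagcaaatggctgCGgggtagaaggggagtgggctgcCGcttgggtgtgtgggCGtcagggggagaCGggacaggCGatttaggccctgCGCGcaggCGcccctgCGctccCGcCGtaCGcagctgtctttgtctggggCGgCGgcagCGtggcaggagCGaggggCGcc

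These windows show the contrast that ran through the list. Of the 152 symbols, 103 matched the RefSeq promoter table, and 58 of their RefSeq starts lay within 100 bp of the start in the deposited tables. The 13 matched windows of genes that start head to head with a coding gene held a median of 24 CG pairs, and the other 90 held 12.5, against 14 over 35116 promoters. The AP-1 element TGANTCA, searched like all motifs on both strands, stood in 7 of the 103 (6.8%, against 7.71% of all promoters), among them LINC01518 with TGAGTCA 229 bases before its start. The MYC-family E-box CACGTG was in 10 (9.71%, against 7.26%), the cAMP response element TGACGTCA in 3 (2.91%, against 1.85%) and the ATF4 and CEBP element TGATGCAA in 1 (0.971%, against 0.866%). The left and right parts of the REST element, TTCAGCACC and GGACAGCGC, were in 0 member windows, against 0.376% and 0.581% of all promoters. None of the searched motifs contains another. LINC02381 and LINC01315, both among the 12 most abundant, were E-box holders. Of the 11 matched genes that rose in the shRCOR2 line, 2 held the AP-1 element and 0 held any other searched motif. Nothing is read from counts this small.

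A few genes held much of the LINC RNA in Kelly. LINC00682 averaged 106 TPM and took 8.99% of the summed level of the 153, the top 3 took 19.7% and the top 12 took 40.9%. The median gene averaged 3.65 TPM, 35 exceeded 10 TPM and 44 lay between 1 and 2 TPM. At least 1 TPM was reached in every library by 109 of the 153. Since TPM is scaled by length, these levels can be set side by side between genes.

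**Figure D1:**
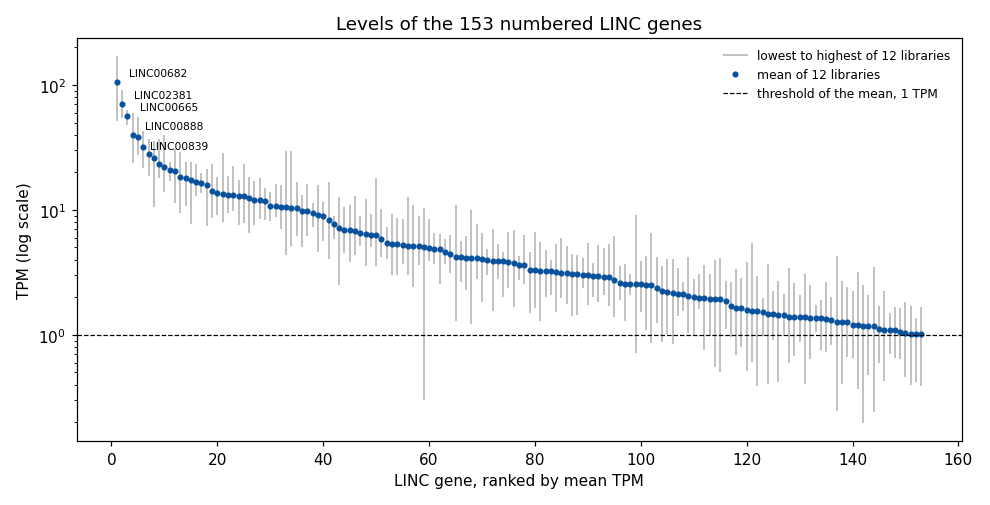
Mean TPM of the 153 LINC genes over 12 libraries on a log axis, ranked from high to low, with a grey line from the lowest to the highest library and a dashed line at the 1 TPM threshold. LINC00682 stands highest at 106 TPM, and the median gene is at 3.65 TPM.

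LINC00682 (chr4:41872747-41882955) stood at 152 and 97.3 TPM in untreated and 109 and 73.6 TPM in induced libraries in the shRCOR1 line. Its shRCOR2 libraries stood at 155 and 86.97 TPM in untreated and 71.5 and 51.6 TPM in induced libraries. In the shCTRL line it stood at 151 and 77.3 TPM in untreated and 169.8 and 79.1 TPM in induced libraries. Replicate 1 was above replicate 2 in all 6 groups, and the untreated and induced groups did not overlap in the shRCOR2 line. Its change there was -0.93 ± 0.47 on the log2(TPM + 1) scale (estimate ± SE, limma, adjusted p = 0.2299), and it passed the test once the replicate number was a term (adjusted p = 0.00188).

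LINC02381 (chr12:54126082-54147485), which overlaps the uracil-DNA glycosylase gene SMUG1 on the other strand, was second at 70.1 TPM. It was at 70.6 and 68.1 TPM untreated and 54.1 and 58.03 TPM induced in the shRCOR2 line, against 71.2 and 68.7 and then 79.03 and 91.8 TPM in the shCTRL line. The shRCOR2 change of -0.30 ± 0.10 did not pass (adjusted p = 0.0713) without the replicate term and did with it (0.02503). LINC00665 followed at 56.2 TPM and ranged from 48.1 to 62.6 TPM over the 12 libraries. LINC00665, like LINC00662 and LINC01128 further down, has been studied in several cancers. Its change in the shRCOR1 line, -0.25 ± 0.11, passed only with the replicate term (adjusted p = 0.2103 without and 0.03596 with it).

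Next came LINC00888 (39.9 TPM) and LINC00839 (38.1 TPM), whose changes differed between the 2 knockdown lines and which are described with that comparison. LINC02210 (32.1 TPM) overlaps the readthrough gene LINC02210-CRHR1 on the same strand, so its reads may be shared with it. The shRCOR2 change of LINC02210, -0.45 ± 0.24, passed only with the replicate term (adjusted p = 0.245 without and 0.0254 with it). LINC01315 averaged 27.9 TPM and stood at 35.6 and 33.2 TPM in untreated and 18.6 and 23.9 TPM in induced libraries in the shRCOR1 line. The groups did not overlap, but the change of -0.68 ± 0.23 passed only with the replicate term (adjusted p = 0.105 without and 0.0101 with it). LINC00641 (25.8 TPM) is described among the falls.

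LINC02525, LINC00662, LINC01128 and LINC00342 complete the top 12. LINC02525 stood at 21.3 and 18.1 TPM in untreated and 27.0 and 26.8 TPM in induced libraries in the shRCOR2 line. But it also stood at 20.9 and 22.2 TPM in untreated and 26.8 and 36.7 TPM in induced libraries in the shCTRL line. Neither change passed without the replicate term. With it the shRCOR2 change passed (adjusted p = 0.0437) and the shCTRL change did not (adjusted p = 0.184). LINC00662 ranged from 13.9 TPM, in untreated shRCOR1 and shRCOR2 libraries, to 39.5 TPM in an induced shCTRL library. The shRCOR2 change of LINC00662, 0.85 ± 0.37, passed only with the replicate term (adjusted p = 0.158 without and 0.0140 with it). Those in the shRCOR1 and shCTRL lines, 0.52 ± 0.37 and 0.49 ± 0.37, passed in neither fit. LINC01128 stayed between 17.1 and 24.0 TPM. LINC00342 split by replicate number, at 11.4 to 19.8 TPM in the 6 libraries of replicate 1 and 22.9 to 30.7 TPM in those of replicate 2, with changes of -0.06, 0.08 and 0.06 on induction in the shRCOR1, shRCOR2 and shCTRL lines.

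The split of LINC00342 was common. In replicate 2 of all 6 groups, 59 of the 153 genes (38.6%) were higher, against 30.6% of all genes tested, and 10 (6.54%) were higher in replicate 1 of all 6, against 13.1%. LINC00682 belonged to the second kind. The correlation of the 153 genes' log2(TPM + 1) between replicates ran from 0.895 to 0.962 over the 6 groups. Because the replicates differ together, each count is given below without and with the replicate number as a term in the fit. Mitochondrial share and the number of LINC genes at 1 TPM moved with the replicate number too, and their part in the results was not tested.

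Positions in the deposited tables place the 153 genes on 24 chromosomes. Of the 153, 22 lie on chromosome 1, only the pseudoautosomal copy of LINC00106 lies on Y, and none lie within 5 Mb of MYCN. GENCODE v29 types 116 of them as lincRNA, 15 as processed transcript, 7 as antisense and 2 as protein coding (LINC02693 and LINC00672). Although called intergenic, 92 overlap another listed gene and 26 overlap a coding gene. Relative to the nearest coding gene, 18 start head to head with it (on opposite strands, starts within 5 kb), 15 overlap it on the opposite strand, 11 overlap it on the same strand, 86 lie elsewhere within 100 kb and 23 lie farther off. The gene span had a median of 16506 bp. The longest transcript of the 151 genes with one in GENCODE v29 had a median of 2088 nt, with a GC content of 49.0%.

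More LINC genes rose than fell between the untreated and induced libraries of the shRCOR2 line. Of the 153, 18 rose (adjusted p under 0.05, limma with Benjamini-Hochberg adjustment over all 16842 genes tested), when 7.81% of all genes tested rose, and 4 fell, when 6.47% did. The rises are 11.8% and the falls 2.61% of the 153. The median change of the 153 was 0.20, against 0.07 over all genes tested. The 1697 other long non-coding genes tested had the same median, 0.20, with 152 rises and 17 falls, whereas the 12889 protein-coding genes had a median of 0.05, with 1036 rises and 1022 falls. Adding the replicate number to the fit, 42 rose and 15 fell, when 21.4% and 14.8% of all genes did. These include all 22 of the first fit, whose estimates the added term leaves unchanged. The list as such was not tested against other genes.

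**Figure D2:**
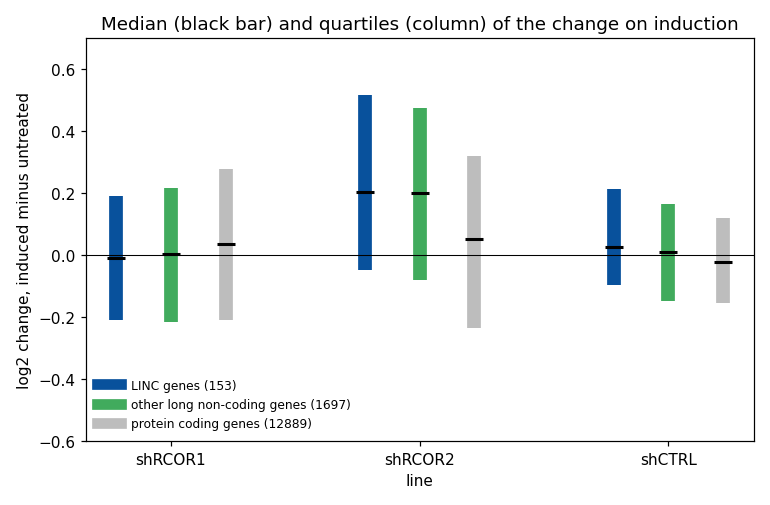
Change on induction, log2(TPM + 1), in the 3 lines for the 153 LINC genes, 1697 other long non-coding genes and 12889 protein-coding genes, with columns from the lower to the upper quartile over genes and a black bar at the median. In the shRCOR2 line both non-coding groups have a median of 0.20 and coding genes 0.05, while in the shCTRL line all 3 medians lie near 0.

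The counts depend on scaling and on single libraries. Median-of-ratios scaling gave 18 rises and 8 falls, and quantile normalization 15 and 7. The median of the 153 was 0.16 with the first and 0.09 with the second, against 0.02 over all genes tested in both, and 0.17 against 0.10 with FPKM. Without untreated replicate 1, untreated replicate 2, induced replicate 1 or induced replicate 2 of the shRCOR2 line, 8, 3, 5 and 5 rises were left, and the median of the 153 was 0.09, 0.30, 0.31 and 0.09. Each of the 22 called genes had the same sign in all 4 of these fits, 4 of them (LINC00467, LINC01518, LINC01184 and LINC02600) passed in all 4, and 12 passed in none. Choosing LINC genes only by their level in the other 2 lines (mean of at least 1 TPM over those 8 libraries, an alternative added after seeing the data) gave 150 genes, 17 rises, 4 falls and a median of 0.19, and of the called genes lost only LINC01695.

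The 6 rises named here are those with the largest change. LINC01518 (chr10:42644445-42691723) stood at 7.06 and 6.896 TPM in untreated and 29.4 and 24.3 TPM in induced libraries in the shRCOR2 line, a change of 1.80 ± 0.26 (adjusted p = 0.00395). Its 8 libraries of the other lines lay between 5.13 and 10.7 TPM, below both induced shRCOR2 libraries. A low-level RNA gene on the opposite strand and a pseudogene overlap it. Its nearest coding gene, the zinc finger gene ZNF33B, changed by 0.32 ± 0.16, adjusted p = 0.225.

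LINC00467 (chr1:211382736-211435570), reported elsewhere as a transcript that N-Myc represses in neuroblastoma cells, stood at 3.99 and 4.33 TPM in untreated and 12.7 and 11.5 TPM in induced libraries in the shRCOR2 line. In the shRCOR1 line it stood at 3.43 and 3.83 TPM in untreated and 3.56 and 4.37 TPM in induced libraries. In the shCTRL line it stood at 3.002 and 3.82 TPM in untreated and 4.11 and 3.59 TPM in induced libraries. The 2 induced shRCOR2 libraries were the only ones of the 12 above 4.37 TPM. The change of 1.34 ± 0.16 (adjusted p = 0.00183) also exceeded that of the shCTRL line by 1.20 ± 0.22 (adjusted p = 0.0364). MYCN, whose product is N-Myc, changed by -1.31 ± 0.31 in the shRCOR2 line (adjusted p = 0.0269) and by -0.31 ± 0.31 in the shRCOR1 line (adjusted p = 0.627). The difference of its shRCOR2 change from the shCTRL change, -1.06 ± 0.44, did not pass (adjusted p = 0.259). Whether the changes of LINC00467 and MYCN are related was not tested.

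LINC02440 stood at 5.56 and 4.56 TPM in untreated and 17.8 and 11.3 TPM in induced libraries in the shRCOR2 line and between 3.57 and 5.53 TPM in the 8 libraries of the other lines. Its change was 1.33 ± 0.24 (adjusted p = 0.00996). LINC01351, which starts 147 bp from BRINP3, a gene of neural tissue that was too low to test, stood at 2.52 and 1.64 TPM in untreated and 5.63 and 6.68 TPM in induced libraries, a change of 1.23 ± 0.21 (adjusted p = 0.00838). Its groups do not overlap in the shRCOR2 line.

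LINC02593 stood at 10.2 and 5.94 TPM in untreated and 29.4 and 20.3 TPM in induced libraries in the shRCOR2 line, with a wide gap between its replicates in both groups, and changed by 1.53 ± 0.32 (adjusted p = 0.0164). SAMD11, which starts 2912 bp away on the other strand, changed by 1.20 ± 0.38, adjusted p = 0.0702. LINC01695 is scarce and stood at 0.726 and 0.636 TPM in untreated and 3.05 and 3.48 TPM in induced libraries, a change of 1.34 ± 0.22 (adjusted p = 0.00629). Its mean over the 8 libraries of the other lines is under 1 TPM, so its rise helped to put it on the list. In the shRCOR1 line it stood at 0.394 and 0.463 TPM in untreated and 1.25 and 1.52 TPM in induced libraries and passed only with the replicate term (change 0.74 ± 0.22, adjusted p = 0.0721 without and 0.0194 with it).

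The other 12 rises had changes from 0.53 (LINC00888) to 1.12 (LINC00174). Among them LINC01184, which overlaps the coding gene CCDC192 on the other strand, stood at 11.97 and 10.9 TPM in untreated and 22.2 and 22.5 TPM in induced libraries and changed by 0.91 ± 0.12 (adjusted p = 0.003305). Its 8 libraries of the other lines lay between 9.88 and 12.5 TPM, far below both induced shRCOR2 libraries. Among the others, LINC00847, LINC02820, LINC00476 and LINC00618 had changes between 0.61 and 0.98. LINC01184 was singled out after its values were seen because it passed in every fit that left out a library.

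LINC00641, LINC02600, LINC01971 and LINC01619 fell in the shRCOR2 line. LINC00641 (chr14:21200079-21206900), whose nearest coding gene encodes the RNA-binding protein HNRNPC, stood at 29.1 and 32.5 TPM in untreated and 10.6 and 14.1 TPM in induced libraries, a change of -1.26 ± 0.25 (adjusted p = 0.01303). In the shCTRL line it stood at 27.6 and 35.6 TPM in untreated and 20.5 and 31.8 TPM in induced libraries. Both induced shRCOR2 libraries lay under every other library, of which the lowest was an induced shCTRL library at 20.5 TPM. The difference from the shCTRL change, -0.98 ± 0.35, passed only with the replicate term (adjusted p = 0.188 without and 0.00614 with it).

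LINC01971 stood at 3.93 and 3.84 TPM in untreated and 1.52 and 1.49 TPM in induced libraries (change -0.96 ± 0.20, adjusted p = 0.0173). Its 8 libraries of the other lines lay between 2.86 and 4.61 TPM. LINC01619, which overlaps the antiproliferative gene BTG1 on the same strand and may share reads with it, stood at 1.76 and 1.82 TPM in untreated and 0.507 and 0.537 TPM in induced libraries (change -0.88 ± 0.22, adjusted p = 0.0333). BTG1 changed by 0.42 ± 0.14, adjusted p = 0.0818 there, in the other direction.

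**Figure D3:**
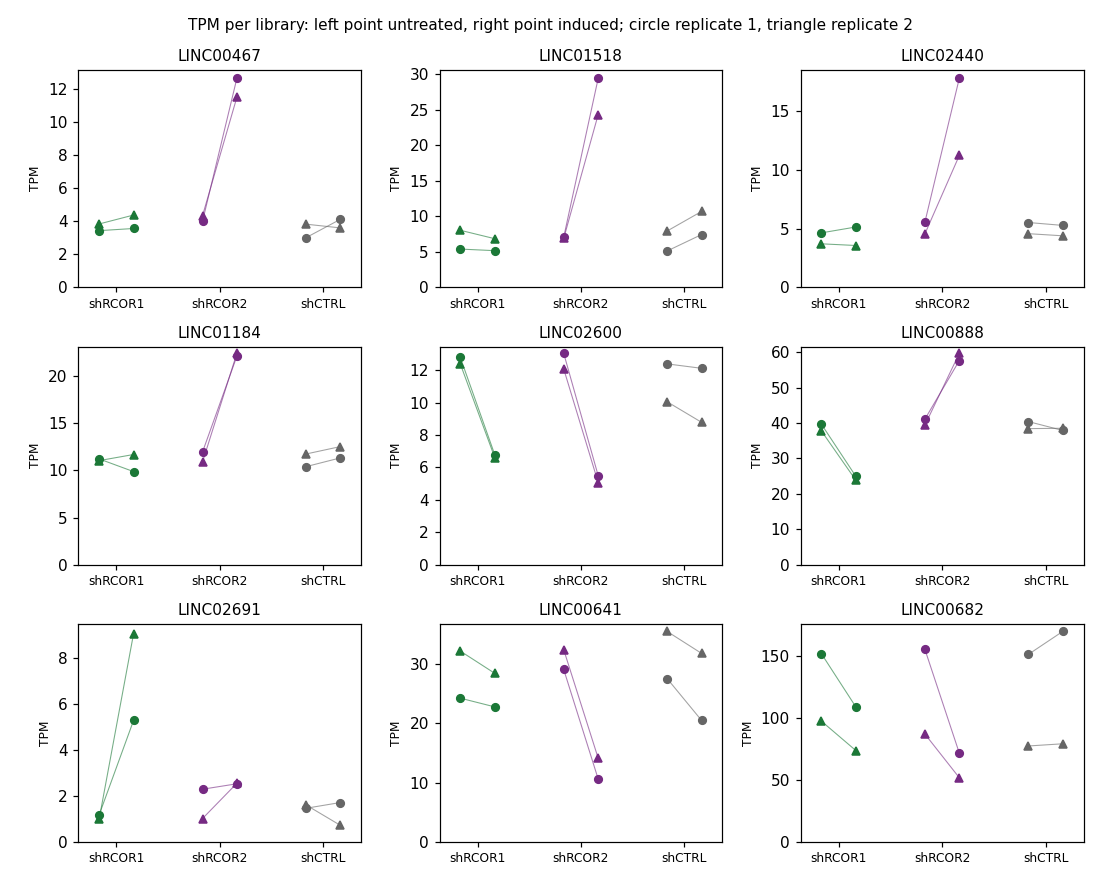
TPM of 9 LINC genes in each of the 12 libraries, with untreated on the left and induced on the right of each line and replicates joined (circles replicate 1, triangles replicate 2). LINC00467 is at 12.7 and 11.5 TPM in the induced shRCOR2 libraries and at most 4.37 TPM in the 10 others.

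In the shRCOR1 line few LINC genes passed the test. Of the 153, 2 rose, when 4.98% of all genes tested rose, and 4 fell, when 3.64% did. Of the 1697 other long non-coding genes tested, 1.41% rose and 1.89% fell. The median change of the 153 was -0.01, against 0.04 over all genes, and its sign changed when single libraries were left out (from -0.18 without induced replicate 2 to 0.16 without induced replicate 1). A fit with the replicate number had 8 rises and 13 falls, when 15.4% and 12.1% of all genes did. Quantile normalization gave 4 rises and 4 falls and a median of -0.10. Leaving out untreated replicate 1, untreated replicate 2, induced replicate 1 or induced replicate 2 of this line gave 0, 0, 2 and 0 rises and 1, 1, 1 and 2 falls, and LINC00888 was called in all 4.

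The 2 rises were LINC02691 and LINC01711. LINC02691 (chr14:104223584-104288069) stood at 1.17 and 0.9804 TPM in untreated and 5.29 and 9.08 TPM in induced libraries in the shRCOR1 line, with all 8 libraries of the other lines at or below 2.56 TPM. Its change was 1.94 ± 0.31 (adjusted p = 0.00803), and that of KIF26A, a kinesin-family gene 42690 bp away, was 0.98 ± 0.15, adjusted p = 0.00625. LINC01711 (chr20:58634772-58635738) stood at 0.932 and 1.303 TPM in untreated and 3.39 and 5.48 TPM in induced libraries and changed by 1.34 ± 0.26 (adjusted p = 0.0165). Like LINC01695, it reached a mean of 1 TPM only with the line in which it rose. By the 8 libraries of the other lines 158 LINC genes were chosen, with 1 rise and 4 falls.

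LINC00888, LINC00672, LINC02202 and LINC02600 fell in the shRCOR1 line. LINC00672 stood at 4.16 and 4.61 TPM in untreated and 1.99 and 2.75 TPM in induced libraries (change -0.68 ± 0.15, adjusted p = 0.0252). LINC02202, which starts 567 bp from EBF1, a gene for a transcription factor of B cells and neurons, stood at 1.72 and 1.33 TPM in untreated and 0.505 and 0.387 TPM in induced libraries (change -0.80 ± 0.20, adjusted p = 0.0405). Neither gene's untreated and induced libraries overlap in this line. The largest estimated fall, -2.15 ± 0.86 at LINC02810, passed only with the replicate term (adjusted p = 0.171 without and 0.0179 with it).

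LINC02600 fell in both knockdown lines. It stood at 12.8 and 12.4 TPM in untreated and 6.79 and 6.61 TPM in induced libraries in the shRCOR1 line (change -0.82 ± 0.16, adjusted p = 0.0177). In the shRCOR2 line it stood at 13.04 and 12.1 TPM in untreated and 5.49 and 5.07 TPM in induced libraries (change -1.11 ± 0.16, adjusted p = 0.00433). The shCTRL libraries stood at 12.4 and 10.1 TPM in untreated and 12.1 and 8.78 TPM in induced libraries. All 4 induced knockdown libraries lay below all 8 others. ADRA2C, the α2C-adrenergic receptor gene that starts 2958 bp away on the other strand, changed by -0.22 ± 0.14, adjusted p = 0.354 in the shRCOR2 line. The difference of LINC02600 from the shCTRL change passed in neither line without the replicate term (adjusted p = 0.1903 and 0.06302) and in both with it (0.0321 and 0.00844).

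In the shCTRL line, 0 of the 153 rose and 0 fell, and the same held for all genes tested (0%). With the replicate term 0 of the 153 were called, when 0.0297% of all genes rose and as many fell. At an unadjusted p under 0.05, 5 of the 153 passed in limma, 4 of them higher after induction, when 938 of the 16842 genes tested passed. With the replicate term 11 of the 153 passed, when 2642 of the 16842 did. Before induction, 0 of the 153 and 0% of all genes differed between either knockdown line and the shCTRL line, without and with the replicate term. At an unadjusted p under 0.05 these comparisons had 1 (shRCOR1) and 0 (shRCOR2) LINC genes without the term and 5 and 4 with it. Over all 16842 genes tested they had 114 and 123 without the term and 446 and 339 with it.

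Set against the shCTRL change, 0 of the 153 rose and 0 fell in the shRCOR1 line, when 0.843% and 0.439% of all genes did. An unadjusted p under 0.05 was reached there by 13 of the 153 and by 2357 of the 16842 genes tested. With the replicate number in the fit 3 rose and 4 fell, when 6.59% and 3.57% did. In the shRCOR2 line 4 rose, when 0.891% of all genes did, and 0 fell, when 1.2% did. Of the 1697 other long non-coding genes tested, 20 rose and 1 fell there. With the replicate term 15 of the 153 rose and 6 fell, when 8.93% and 5.8% of all genes did. Both comparisons use the same shCTRL libraries. In 6 of the 8 fits that left out 1 library, 0 of the 153 rose. Without induced replicate 1 of the shCTRL line 3 rose, of which LINC00467 and LINC01816 are among the 4, and without its induced replicate 2 LINC01816 alone rose. The median of the 153, 0.17 (0.09 over all genes tested), was 0.09 with median-of-ratios scaling and 0.07 with quantile normalization, and fell below 0 without untreated replicate 2 (-0.06) or induced replicate 1 (-0.08) of the shCTRL line.

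These 4 were LINC01351, LINC01816, LINC00467 and LINC00888. LINC01351 exceeded the shCTRL change by 1.61 ± 0.30 (adjusted p = 0.0385) and stood at 2.202 and 3.58 TPM in untreated and 2.02 and 1.84 TPM in induced libraries in the shCTRL line. LINC01816 exceeded it by 1.37 ± 0.20 (adjusted p = 0.0182). It stood at 2.73 and 2.98 TPM in untreated and 4.86 and 5.46 TPM in induced libraries in the shRCOR2 line and at 3.25 and 3.77 TPM in untreated and 1.73 and 1.83 TPM in induced libraries in the shCTRL line. About as much of the LINC01816 difference lay in the lower shCTRL values (-0.69 ± 0.14, adjusted p = 0.782) as in the shRCOR2 rise (0.68 ± 0.14, adjusted p = 0.0162).

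The 2 knockdown lines were then compared with each other. The change was higher in the shRCOR2 line at 12 of the 153 genes, when 5.2% of all genes were, and lower at 3, when 5.97% were. Of the 1697 other long non-coding genes tested, 76 were higher and 16 lower. Their median difference was 0.22, against 0.24 for the 153. Of the 12889 protein-coding genes, 737 were higher and 934 lower, with a median of 0.01. With the replicate term the counts of the 153 were 26 and 12, when 15.7% and 14.7% of all genes differed. Median-of-ratios scaling gave 15 and 7, quantile normalization 12 and 7. In the 8 fits without 1 library, 1 (without induced shRCOR2 replicate 1) to 8 (without induced shRCOR1 replicate 1) were higher and 0 to 4 lower, all 15 kept their sign, and LINC00888 passed in each.

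LINC00888 was the one gene called in opposite directions in the 2 lines. It stood at 39.6 and 37.7 TPM in untreated and 24.9 and 23.8 TPM in induced libraries in the shRCOR1 line (change -0.65 ± 0.08, adjusted p = 0.00349). The shRCOR2 libraries stood at 41.1 and 39.4 TPM in untreated and 57.6 and 59.7 TPM in induced libraries (change 0.53 ± 0.08, adjusted p = 0.00589). The shCTRL libraries lay between 37.9 and 40.4 TPM, above both induced shRCOR1 libraries and below both induced shRCOR2 libraries. The difference between the lines was 1.18 ± 0.12 (adjusted p = 0.00158). LINC00888 (chr3:183447608-183456013) is typed as a transcribed unprocessed pseudogene, so a related gene could share its reads, and it holds the small nucleolar RNA genes SNORA63E and SNORA63D on its own strand.

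**Figure D4:**
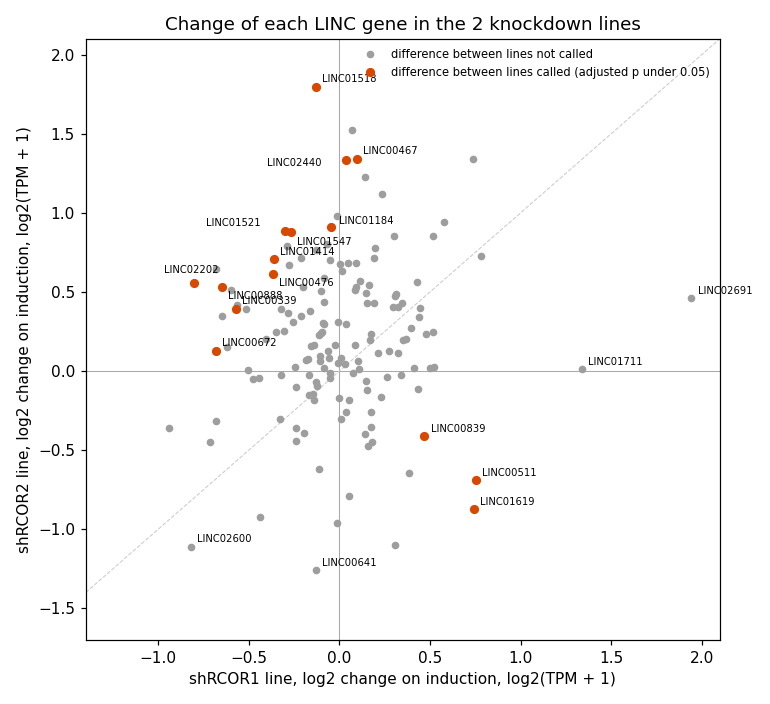
Change on induction, log2(TPM + 1), in the shRCOR1 line (x axis) and the shRCOR2 line (y axis) for the LINC genes, with a dashed line of equal change and the 15 genes whose change differs between the lines in orange. LINC02810, at -2.15 in the shRCOR1 line, lies outside the drawn x range. LINC00888 lies at -0.65 and 0.53, and LINC02600 is low in both lines.

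The largest positive differences between the lines were at LINC01518 (1.93 ± 0.36, adjusted p = 0.01301), LINC02202 (1.36 ± 0.28, adjusted p = 0.0176), LINC02440 (1.29 ± 0.34, adjusted p = 0.0446) and LINC00467 (1.24 ± 0.22, adjusted p = 0.0107). LINC02202 stood at 1.14 and 1.63 TPM in untreated and 2.96 and 2.09 TPM in induced libraries in the shRCOR2 line, so its difference came from both lines, while LINC01518 stood at 5.396 and 8.04 TPM in untreated and 5.17 and 6.85 TPM in induced libraries in the shRCOR1 line. The 3 negative differences were LINC01619, LINC00511 and LINC00839. LINC01619 stood at 1.55 and 2.45 TPM in untreated and 3.81 and 4.14 TPM in induced libraries in the shRCOR1 line, and its difference was -1.62 ± 0.31 (adjusted p = 0.0148).

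LINC00511, studied as a growth-promoting transcript in several tumours, stood at 2.91 and 3.405 TPM in untreated and 5.24 and 6.87 TPM in induced libraries in the shRCOR1 line. In the shRCOR2 line it stood at 2.94 and 3.85 TPM in untreated and 1.74 and 1.67 TPM in induced libraries. The induced libraries lay above the untreated ones in the shRCOR1 line and below them in the shRCOR2 line. The difference was -1.45 ± 0.34 (adjusted p = 0.0284), although neither single change passed without the replicate term (adjusted p = 0.0902 and 0.0877) and both did with it (0.00767 and 0.00859).

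LINC00839 (chr10:42475480-42495337) lies on chromosome 10, as LINC01518 does, and also has ZNF33B as its nearest coding gene. It stood at 35.8 and 40.2 TPM in untreated and 50.7 and 55.2 TPM in induced libraries in the shRCOR1 line. It stood at 38.1 and 35.8 TPM in untreated and 27.6 and 27.4 TPM in induced libraries in the shRCOR2 line. Its difference was -0.88 ± 0.18 (adjusted p = 0.0176), opposite in sign to that of LINC01518. With the replicate term, LINC00511, LINC00839 and LINC01619 rose in the shRCOR1 line and fell in the shRCOR2 line, LINC00339, LINC00634, LINC00888 and LINC02202 did the reverse, LINC01695 rose in both, and LINC01976 and LINC02600 fell in both.

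In the shRCOR2 line, 20 of the 22 called genes had a coding neighbour that was tested, 14 of these pairs shared a sign, and 0 of the neighbours passed the test in either direction, when 7.81% of all genes tested rose and 6.47% fell, and nothing is read from a count this small. In the shRCOR1 line 3 of 6 shared a sign, and KIF26A beside LINC02691 was the 1 neighbour called, when 4.98% of all genes tested rose and 3.64% fell. Over all 128 pairs with a tested neighbour, Pearson's r of the 2 changes was 0.22 in the shRCOR1 line, 0.18 in the shRCOR2 line and 0.11 in the shCTRL line, as a description, since the 2 genes of a pair come from the same libraries. Among the 16 head-to-head pairs it was 0.04, 0.47 and 0.60.

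Of the 18 genes that start head to head with a coding gene, 5 rose in the shRCOR2 line, LINC02593, LINC01521, LINC01351, LINC01547 and LINC00235, and LINC02600 fell, when 7.81% and 6.47% of all genes tested did. Of the 15 that overlap a coding gene on the opposite strand 4 rose, of the 11 on the same strand 1, of the 86 elsewhere within 100 kb 6 and of the 23 farther off 2. LINC01521 stood at 6.59 and 5.72 TPM in untreated and 11.6 and 12.9 TPM in induced libraries (change 0.89 ± 0.17, adjusted p = 0.0125), and PATZ1 changed by 0.15 ± 0.20, adjusted p = 0.687. LINC01547 stood at 1.703 and 1.74 TPM in untreated and 3.83 and 4.203 TPM in induced libraries (change 0.88 ± 0.17, adjusted p = 0.0126), and FAM207A changed by -0.08 ± 0.19, adjusted p = 0.822. LINC00235 stood at 1.29 and 1.12 TPM in untreated and 2.51 and 2.504 TPM in induced libraries (change 0.67 ± 0.19, adjusted p = 0.04496), and CAPN15 changed by 0.06 ± 0.30, adjusted p = 0.919. In these 3 pairs the CG-rich windows printed above lie close to the start of a coding gene that did not pass the test. These 3 were picked after their values were seen, and whether head-to-head genes rise more often was not tested.

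**Figure D5:**
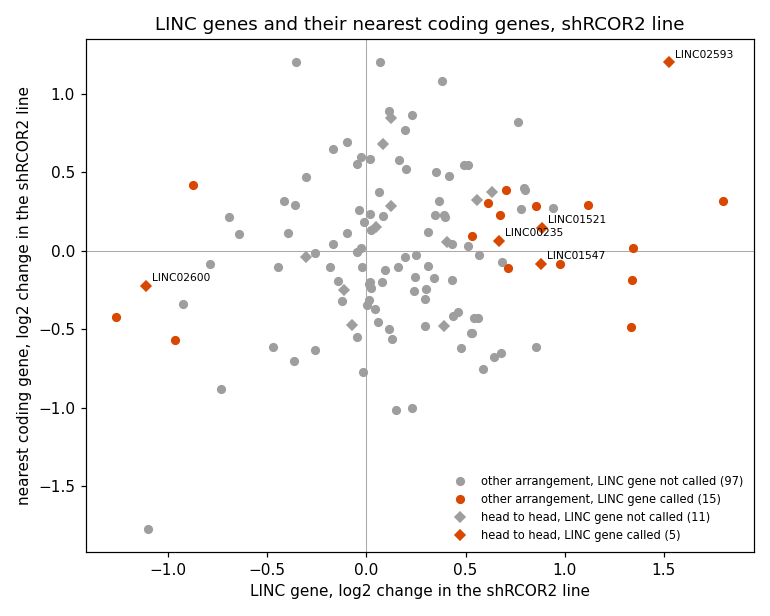
Change in the shRCOR2 line, log2(TPM + 1), of each LINC gene (x axis) and of its nearest coding gene (y axis) for the 128 pairs with a tested neighbour, with diamonds for head-to-head pairs and orange for called LINC genes. LINC02593 and SAMD11 lie at the top right, and LINC01521, LINC01547 and LINC00235 have neighbours near 0.

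LINC00472 is the 1 gene of the 153 that contains microRNA genes, MIR30A and MIR30C2, both on its own strand. The 5p mature sequences, from RefSeq, share their seed (bases 2 to 8, in capitals), and the 3p sequences do not share it.
hsa-miR-30a-5p: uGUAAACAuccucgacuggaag
hsa-miR-30c-5p: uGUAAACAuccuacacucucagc
hsa-miR-30a-3p: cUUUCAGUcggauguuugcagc
hsa-miR-30c-2-3p: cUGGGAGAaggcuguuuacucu
LINC00472 (chr6:71343427-71420745) stood at 0.864 and 1.19 TPM in untreated and 1.497 and 1.46 TPM in induced libraries in the shRCOR2 line, and its change of 0.29 ± 0.23 did not pass (adjusted p = 0.444). The mature microRNAs themselves are not measured by these values. LINC00595, which holds SNORA71, stood at 2.74 and 5.49 TPM in untreated and 1.297 and 1.88 TPM in induced libraries in the shRCOR1 line and passed only with the replicate term (change -0.94 ± 0.48, adjusted p = 0.288 without and 0.00742 with it).

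Several members known from nervous tissue or cancer stayed without a call. LINC00632, the host transcript of the circular RNA CDR1-AS, ranged from 3.53 to 12.3 TPM, and both ends lay in the shRCOR1 line (change 0.48 ± 0.52, adjusted p = 0.652). The deposited gene values do not separate the circular from the linear RNA. LINC01833, which starts 2503 bp from the forebrain transcription factor gene SIX3, stood at 2.09 and 6.12 TPM in untreated and 1.52 and 3.32 TPM in induced libraries in the shCTRL line and changed by 0.13 ± 0.49 in the shRCOR2 line (adjusted p = 0.902). Its replicates differed by more than its groups.

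LINC00294 stood at 11.5 and 14.7 TPM in untreated and 6.58 and 7.67 TPM in induced libraries in the shRCOR2 line, where both induced libraries lay below all 10 others. Its change of -0.79 ± 0.24 passed only with the replicate term (adjusted p = 0.0589 without and 0.00235 with it). LINC01116 likewise passed only with the term, at a smaller change (-0.39 ± 0.13, adjusted p = 0.0865 without and 0.0112 with it). LINC00461, LINC00599 and LINC00473, also looked for, lay under the threshold. LINC01410 changed by 0.30 ± 0.17 (adjusted p = 0.278). LINC00667, by contrast, rose in the shRCOR2 line, at 4.85 and 4.57 TPM in untreated and 7.88 and 8.88 TPM in induced libraries (change 0.71 ± 0.19, adjusted p = 0.036996).

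Among 50 long non-coding genes known by other names, 40 were tested. In the shRCOR1 line PVT1 and ZFAS1 rose and DANCR and DLEU2 fell, when 4.98% of all genes tested rose and 3.64% fell. In the shRCOR2 line GAS5, PVT1 and ZFAS1 rose and DLEU2 fell, when 7.81% and 6.47% of all genes did. Nothing is read from these counts, which are small. PVT1, which lies beside MYC, stood at 17.7 and 17.9 TPM in untreated and 49.5 and 44.04 TPM in induced libraries in the shRCOR2 line (change 1.34 ± 0.10, adjusted p = 0.000336). The shCTRL changes did not pass but had the same sign, at 0.63 ± 0.20 for GAS5, 0.37 ± 0.13 for ZFAS1, -0.45 ± 0.23 for DLEU2 and 0.25 ± 0.10 for PVT1. GAS5, a host gene of small nucleolar RNAs, stood at 640.2 and 728 TPM in untreated and 1197 and 1249.7 TPM in induced libraries in the shRCOR2 line and at 608 and 824 TPM in untreated and 929 and 1286 TPM in induced libraries in the shCTRL line, where the groups do not overlap either. The shRCOR2 change exceeded the shCTRL change at PVT1 (1.10 ± 0.14, adjusted p = 0.0125), whereas the difference did not pass at GAS5 (0.21 ± 0.28, adjusted p = 0.798), ZFAS1 (0.20 ± 0.18, adjusted p = 0.668) or DLEU2 (-0.46 ± 0.33, adjusted p = 0.556). For the shRCOR1 line the difference from the shCTRL change passed at none of PVT1, ZFAS1, DANCR and DLEU2 (adjusted p from 0.202 to 0.632). Of the 40 it passed at 1, MIR22HG (1.89 ± 0.32, adjusted p = 0.0323), when 0.843% of all genes were higher and 0.439% lower. MIR22HG stood at 1.69 and 2.83 TPM in untreated and 3.47 and 3.84 TPM in induced libraries in the shRCOR1 line. The shCTRL libraries stood at 4.80 and 5.97 TPM in untreated and 1.18 and 1.83 TPM in induced libraries. With the replicate term 8 of the 40 rose and 2 fell in the shRCOR1 line, when 15.4% and 12.1% of all genes tested did. In the shRCOR2 line 10 rose and 3 fell, when 21.4% and 14.8% did. In the shCTRL line 0 rose and 1 fell (MIR22HG), when 0.0297% of all genes rose and as many fell. The medians of the 40 were 0.08, 0.12 and 0.05 in the shRCOR1, shRCOR2 and shCTRL lines.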

How the data were processed

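RNA from 12 Kelly libraries was measured. Trim Galore 0.6.7, HISAT2 2.2.1 and StringTie 2.1.7 made the values on GRCh38 (hg38), per the submitters' processing notes. The sources used here do not give the annotation release, the strand setting or how multimapping reads were treated, so overlapping or antisense genes and close copies may share reads. The deposited TPM values are the authors' own, scaled to the same total in each library, and were the main measure. The deposited FPKM values served as an alternative, and the deposited coverage signal over FPKM gave relative depth (no read counts are in these files, so no counting intervals are given). Rows split over the same gene identifier were summed. Types came from GENCODE v29 (58429 identifiers matched) and sequences from RefSeq.

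Members have a name of LINC and digits and a mean of at least 1 TPM over the 12 libraries. Genes at 1 TPM or more in at least 2 libraries (16842, with all 153 members) were fitted as log2(TPM + 1) with 6 group means and a variance trend in limma 3.58.1 (R 4.3.3), and p-values were Benjamini-Hochberg adjusted over all of them. The pseudocount of 1 understates changes of low genes. The fit without the replicate term was also run on simulated data. These had independent noise in each library and changes only in the more abundant genes. They do not show how the fit performs at low levels or where same-numbered replicates deviate together. Same-numbered replicates deviated together in all 15 pairs of groups (correlation 0.372 to 0.75), so the numbers pair the libraries, from the data and not from the labels, and values with the replicate number as a block stand beside those without it. Alternatives were another pseudocount, no low-value filter, FPKM, 3 scalings, only the groups compared, each library left out, stricter members, and members chosen by the other lines (chosen after seeing the data).

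Values per library are given for the 12 most abundant members, the called members with the largest changes (up to 6 per direction on induction, 4 for differences between lines), members holding a microRNA gene, those at the threshold, and numbered genes studied in cancer or nerve tissue. Members and lists were chosen with earlier results of these data known.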

Additional observations from a re-analysis of the deposited data

Results flagged for a closer look

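At 15 genes the change on induction in the shRCOR2 line differed from that in the shRCOR1 line (limma, adjusted p under 0.05). The difference, shRCOR2 change minus shRCOR1 change in log2(TPM + 1), was 1.93 at LINC01518, 1.36 at LINC02202, 1.29 at LINC02440, 1.24 at LINC00467, 1.19 at LINC01521, 1.18 at LINC00888, 1.15 at LINC01547, 1.07 at LINC01414, 0.98 at LINC00476, 0.97 at LINC00339, 0.96 at LINC01184 and 0.81 at LINC00672. It was -0.88 at LINC00839, -1.45 at LINC00511 and -1.62 at LINC01619. LINC00339, which overlaps the small GTPase gene CDC42 on the same strand and may share its reads, stood at 17.7 and 20.9 TPM in untreated and 10.7 and 14.8 TPM in induced libraries in the shRCOR1 line and at 17.7 and 17.6 TPM in untreated and 23.9 and 23.1 TPM in induced libraries in the shRCOR2 line. LINC01414 stood at 2.83 and 2.57 TPM in untreated and 1.52 and 2.28 TPM in induced libraries in the shRCOR1 line and at 2.77 and 2.98 TPM in untreated and 5.31 and 5.31 TPM in induced libraries in the shRCOR2 line. LINC00476 stood at 3.44 and 4.32 TPM in untreated and 3.196 and 2.37 TPM in induced libraries in the shRCOR1 line and at 3.47 and 3.97 TPM in untreated and 5.85 and 6.595 TPM in induced libraries in the shRCOR2 line. For these 3 genes the untreated and induced libraries of the shRCOR2 line do not overlap.

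At 4 genes the shRCOR2 change differed from the shCTRL change by the same test, by 1.61 at LINC01351, 1.37 at LINC01816, 1.20 at LINC00467 and 0.58 at LINC00888. The adjusted p-values of LINC00888 (0.0495) and LINC01351 (0.0385) lay close to the threshold, and neither gene was called in any of the 8 fits that left out a library.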

How the results depend on the processing

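The 47 single calls (a gene in a comparison) had the same direction in every alternative fitted. This was fixed in advance with the replicate block, only the groups compared or no low-value filter, which leave the estimates unchanged. All 47 stayed past the threshold with the replicate block, 45 with FPKM, 43 with median-of-ratios scaling, 41 with a pseudocount of 0.1, 36 with TPM rescaled without mitochondrial genes, 35 with only the groups compared, 33 with quantile normalization and 32 without the low-value filter, against 77 of 264 fits that left out a library. The cause was not tested where counts moved, except that fewer libraries or genes enter some fits. In the counts below, rises come before falls.

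The replicate block moved the counts to 8 and 13 in the shRCOR1 line, 42 and 15 in the shRCOR2 line, 3 and 4 for the shRCOR1 change against shCTRL, 15 and 6 for the shRCOR2 change against shCTRL, and 26 and 12 between the knockdown lines. With 1 library of each replicate number per group, the block leaves every estimate unchanged, so no call could change direction. It lost none of the calls. With only the groups compared, the shRCOR1 line had 1 and 1, the shRCOR2 line 7 falls, the shRCOR2 change against shCTRL 0 rises and the difference between the knockdown lines 5 falls. Quantile normalization gave 4 rises in the shRCOR1 line, 7 falls in the shRCOR2 line, 1 and 1 for shRCOR1 against shCTRL, 1 fall for shRCOR2 against shCTRL and 7 falls between the knockdown lines. Median-of-ratios scaling gave 8 falls in the shRCOR2 line, 1 fall for shRCOR1 against shCTRL and 7 falls between the knockdown lines. FPKM gave 1 fall for shRCOR1 against shCTRL and 19 rises between the knockdown lines. No low-value filter gave 1 fall for shRCOR1 against shCTRL and 7 rises between the knockdown lines. TPM without mitochondrial genes gave 1 rise for shRCOR2 against shCTRL.

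Among members with a mean of at least 2 TPM, 1 rose in the shRCOR1 line. Among the 61 that overlap no other gene, the shRCOR1 line had 2 falls, the shRCOR2 line 6 rises, the shRCOR2 change against shCTRL 1 rise and the difference between the knockdown lines 3 rises and 1 fall. Among genes chosen by the other lines, the shRCOR1 line had 1 rise. Leaving out each library in turn gave 0 to 2 rises and 1 to 2 falls in the shRCOR1 line, 3 to 8 and 1 to 2 in the shRCOR2 line, 0 to 3 and 0 to 1 for shRCOR2 against shCTRL, 1 to 8 and 0 to 4 between the knockdown lines, and 0 in the other comparisons. There the lone library of a group is assumed to vary like the other groups. With no read counts, the depth behind a gene near 1 TPM is unknown, and 2 libraries per group limit every test.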
